A study of Mus musculus with 47 samples.

Results

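Transcript levels of 47 mouse genes of the basement membrane and the wider extracellular matrix were followed through a differentiation of mouse embryonic stem cells into ventral neural progenitors. The genes were chosen by symbol, with earlier results of these data known. All 47 were found among the 38347 genes listed for the Foxa2 experiment and the 37514 listed for the Nkx2.2 experiment. They comprise 9 laminin chains, 6 sheet-forming or basement membrane collagens, 5 linker proteins and receptors, 7 fibrillar collagens, 4 chains of collagens VI and IX, 8 adhesive glycoproteins, 2 proteins of the SPARC family and 6 matrix proteins of neural tissue.

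The 47 RNA-seq libraries came from monolayer cultures in N2B27. These received retinoic acid for at most the first 3.5 days, and SAG, an agonist of the Sonic hedgehog signal transducer Smoothened. Undifferentiated cells were untreated. In the Foxa2 experiment SAG was present throughout. Foxa2-/- cells, of a line labelled C57BL/6, were sampled undifferentiated and on days 1, 2, 3.5, 4.5 and 5.5 with 3 libraries each, and on days 6.5 and 7.5 with 2 each. Wild-type (WT) cells, of a line labelled E14.5, gave 2 libraries each up to day 2 and 3 on each later day. In the Nkx2.2 experiment SAG was given for 3.5 days only, and Nkx2.2-/- cells (C57BL/6) and WT cells (E14.5) gave 1 library each on days 3.5 and 5.5. From day 3.5 on, RNA came from cells sorted for prominin, a surface protein of neural progenitors. Mutant genotype and parental line cannot be told apart in either experiment, and nothing states that replicates were separate cultures, so p-values reflect no more than how these libraries vary. The stage label of both later libraries of the Nkx2.2 experiment reads 3.5 days, and their day of 5.5 was taken from the titles. The source name of 1 undifferentiated Foxa2-/- library reads neural progenitor, and it was placed by its title.

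A basement membrane is a thin sheet of matrix under epithelia and around the neural tube. Laminin trimers, each of an alpha, a beta and a gamma chain, and collagen IV form its networks. Nidogens and the heparan sulphate proteoglycans perlecan and agrin link these networks, and dystroglycan anchors laminin to the cell. Fibronectin, vitronectin, thrombospondins and spondins are adhesive glycoproteins that bind integrins or other matrix. The floor plate, the ventral midline organiser of the neural tube that depends on Foxa2, secretes F-spondin, a guidance cue for commissural axons. Lecticans such as neurocan and versican, with tenascins and reelin, form the matrix of nervous tissue.

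Values are FPKM, fragments scaled to transcript length and library size, so that levels of different genes can be compared per length. Libraries up to day 2 held an estimated 36200000 to 42500000 fragments, later ones 14600000 to 33600000, and those of the Nkx2.2 experiment 10600000 to 13100000. Foxa2 itself stood at 0.266 FPKM or less in every Foxa2-/- library and at 37.7 to 100 FPKM in WT libraries of the Foxa2 experiment from day 3.5. Nkx2-2 stood at 1.34 and 3.38 FPKM in Nkx2.2-/- cells, against 19.6 and 28.7 FPKM in WT cells. The dependence of values on transcript length was strongest in library 1 of Foxa2-/- cells on day 2, at -0.163 log2 units for each log2 unit of length, with -0.0521 in library 3 and 0.0352 in library 2. It was next strongest in WT library 1 of day 1 (0.0975, with 0.0279 in library 2) and in library 1 of Foxa2-/- cells on day 3.5 (-0.0962), and lay between -0.0548 and 0.0736 in all other libraries of the Foxa2 experiment. Hspg2, which encodes perlecan, is listed at 0 in library 1 of Foxa2-/- cells on day 2, beside 8.91 and 13.2 FPKM in the other libraries of that group. The 8 floor plate markers other than Foxa2 summed to 37.4 to 45.5 FPKM in Foxa2-/- cells on day 3.5, against 374 to 439 FPKM in WT cells. On day 7.5 the means of Shh, Corin, Foxa1 and Ferd3l, among others, were below 1 FPKM in Foxa2-/- cells, while all 8 markers were at 1 FPKM or more in WT cells, with a sum of 1910 to 2190 FPKM.

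Differences between groups were tested with limma on log2(FPKM + 1) across all genes that reached 1 FPKM in 2 or more libraries, and a gene was called at a Benjamini-Hochberg adjusted p under 0.05. Of the members, 39 passed this filter up to day 2 and 40 from day 3.5 on. Lama3 and Col9a1 passed it in the later libraries through WT cells alone, Vtn and Col3a1 up to day 2 through WT cells alone, and Col9a3 up to day 2 through Foxa2-/- cells alone. A member that passes in this way tends to differ, and this also limits the p-values of these genes in those libraries. The members were chosen with earlier results of these data known. The counts and medians that follow therefore describe the tested members and are no test of the group. Lama2, which encodes the laminin chain of muscle, Col4a3, a chain of the kidney's collagen IV, and the neural Tnr and Bcan passed in neither set. Their highest values were 0.438 FPKM for Lama2, 0.441 FPKM for Col4a3, 0.892 FPKM for Tnr and 1.14 FPKM for Bcan.

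In undifferentiated cells no member was called between Foxa2-/- and WT (0 of 39 by limma, and 0 at an unadjusted p under 0.05), while 0.377% of all 16465 genes tested were, 0.079% higher and 0.298% lower. On day 1, 6 members were higher in Foxa2-/- cells (1.2% of all genes) and 0 lower (0.68%), where 1.88% of all genes were called. On day 2, 0 were higher (1.6%) and 3 lower (3.72%), where 5.31% were called. In the later libraries, with 17124 genes tested, day 3.5 had 1 member higher (0.677%) and 3 lower (2.7%), where 3.38% of all genes were called. Day 4.5 had 2 higher (1.69%) and 5 lower (5.82%), where 7.5% were called. Day 5.5 had 2 higher (4.53%) and 10 lower (9.73%), where 14.3% were called. Day 6.5 had 1 higher (13%) and 10 lower (11.9%), where 24.9% were called, and day 7.5 had 4 higher (13.6%) and 16 lower (12.1%), where 25.8% were called. The share of tested members called was close to that of all genes on day 6.5, at 27.5%, and 50% on day 7.5. The median member differed by -0.74 log2 units on day 7.5, beside 0.04 over all genes. Across the 8 times 25 members were called at least once: 14 were lower and never higher, 8 were higher and never lower, 3 were higher at some times and lower at others, and 22 were never called. The 25 are 58.1% of the 43 members tested in either set, while 39% of the 18211 genes tested in either set were called at least once, 18.2% lower and never higher, 20.1% higher and never lower and 0.741% both.

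**Figure D1:**
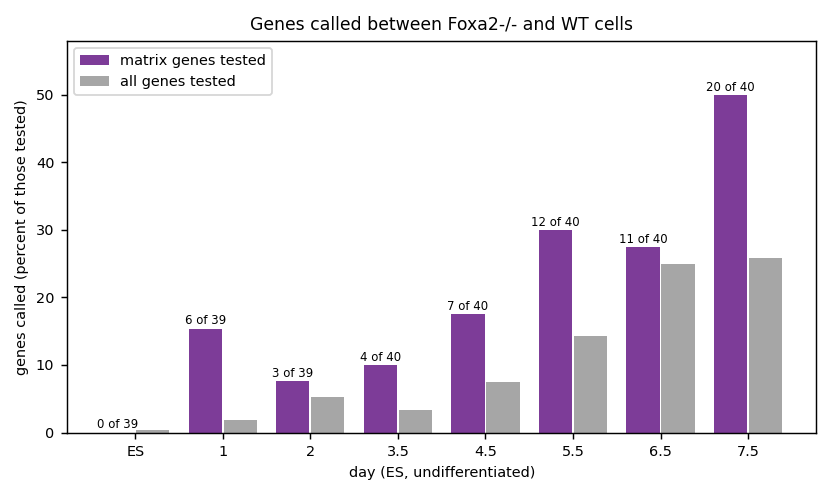
Percent of genes called between Foxa2-/- and WT cells at each time (y axis), for the tested members (purple, with their count) and for all genes tested (grey). Members were called at 50% on day 7.5 against 25.8% of all genes, and at 27.5% against 24.9% on day 6.5.

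**Figure D2:**
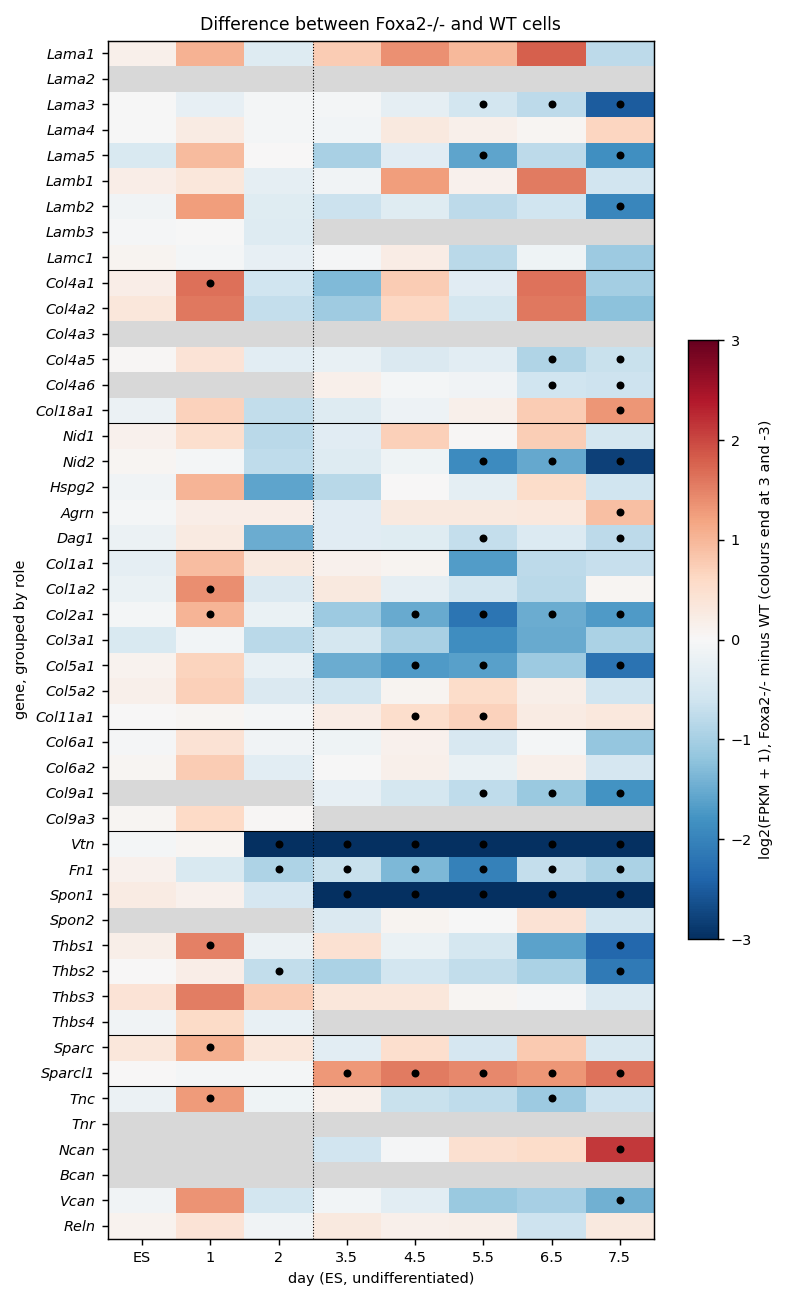
Difference in log2(FPKM + 1), Foxa2-/- minus WT, for each of the 47 members (rows, grouped by role) at each time (columns), with black dots where the gene was called and grey cells where it did not pass the filter. Vtn and Spon1 are the darkest blue from day 3.5 on, and Sparcl1 is red with a dot on each of the 5 later days.

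The adhesive glycoproteins held the largest differences. Vtn encodes vitronectin, which binds alpha-v integrins and lies on mouse chromosome 11 (GRCm38, 78499091 to 78502324, plus strand). In undifferentiated cells and on day 1 it stood at 0.268 FPKM or less in all libraries of both genotypes. On day 2 it stood at 0.271, 0.142 and 0.0816 FPKM in Foxa2-/- cells, against 22 and 10.4 FPKM in WT cells (log2 difference -3.8, SE 0.233, adjusted p = 6.02e-06). On day 3.5 it reached 2.14, 0.933 and 1.06 FPKM in Foxa2-/- cells, against 90.4, 110 and 173 FPKM in WT cells (-5.7, SE 0.392, adjusted p = 4.99e-09). On day 7.5 the values were 0.902 and 2.11 FPKM in Foxa2-/- cells, against 1740, 1700 and 1950 FPKM in WT cells (-9.53, SE 0.439, adjusted p = 1.92e-12). The genotypes did not overlap from day 2 on, and each of these calls held when any 1 library was left out. The call of day 2 was lost when only the groups compared were fitted. Vtn had also passed the filter up to day 2 through WT cells alone, which limits the p-value of day 2. By mean, vitronectin was the most abundant of the 47 members in WT cells on day 7.5, at 1800 FPKM, above Sparc at 1120 ± 476 FPKM (SD, n = 3). In Foxa2-/- cells Sparc came first, at 843 ± 573 FPKM (SD, n = 2), followed by Col4a1 at 318 ± 312 FPKM and Sparcl1 at 248 ± 36 FPKM. The spreads of Sparc and Col4a1 overlap with those of their neighbours in this order. In bulk RNA such as this, fewer cells of a type and less RNA per cell cannot be told apart, and the floor plate markers were low in the same libraries as Vtn; their part in its loss was not tested.

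The sequence just upstream of Vtn is shown because it carries the largest change, and that of Col6a1, a collagen VI chain, because it is the one member window that holds a forkhead-like motif. The motifs searched were TGTTTAC and TATTTAC on both strands, in RefSeq windows (GRCm38.p6) of 250 bases before to 50 after each start. Windows were found for 32 of the 47 members, and 1 of these genes held a motif, beside 7.35% of all 27025 genes. Spon1 and Fn1 had no window. Both stretches are given 5′ to 3′ on the gene's strand and end at the base before the first annotated start. Capitals mark the motif, here as the reverse complement of TGTTTAC, and Vtn has none.
Vtn, chr11:78498870-78499090, plus strand: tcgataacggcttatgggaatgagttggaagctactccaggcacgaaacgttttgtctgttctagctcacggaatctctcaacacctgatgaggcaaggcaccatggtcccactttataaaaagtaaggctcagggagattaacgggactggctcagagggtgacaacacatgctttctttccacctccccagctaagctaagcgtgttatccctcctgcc
Col6a1, chr10:76726169-76726294, minus strand: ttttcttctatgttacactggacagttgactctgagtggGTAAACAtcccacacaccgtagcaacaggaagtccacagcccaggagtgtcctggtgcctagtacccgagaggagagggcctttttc
Col6a1 was called between genotypes at none of the 8 times and Vtn at 6. The absence of these letters says nothing of binding outside the windows.

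Spon1 encodes F-spondin. It was not called up to day 2, when it had reached 2.48, 3.46 and 3.14 FPKM in Foxa2-/- cells, against 4.43 and 4.87 FPKM in WT cells. On day 3.5 it stood at 7.01, 5.42 and 4.76 FPKM in Foxa2-/- cells, against 57.3, 49.9 and 65 FPKM in WT cells (-3.12, SE 0.253, adjusted p = 5.34e-08). The following days gave log2 differences of -4.5, -5.08, -4.87 and -3.5 (SE 0.253 to 0.282), with no overlap on any of these days. Spon1 rose in the mutant as well. It stood at 39.9 and 58.5 FPKM in Foxa2-/- cells on day 7.5, a change of 2.89 log2 units over day 3.5 (SE 0.282, adjusted p = 3.71e-07), while WT cells were at 479, 629 and 574 FPKM. The related Spon2 stayed at 1.68 FPKM or less in all 28 later libraries and was not called.

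Fn1, which encodes fibronectin, was lower in Foxa2-/- cells at all 6 times from day 2 on, by a smaller margin. It was lowest relative to WT on day 5.5, at 11.9, 10.5 and 12.4 FPKM in Foxa2-/- cells, against 59.9, 44.9 and 47.3 FPKM in WT cells (-2.03, SE 0.164, adjusted p = 1.47e-08). By day 7.5 it had reached 32.1 and 38.2 FPKM in Foxa2-/- cells, against 62.8, 68.4 and 74.4 FPKM in WT cells (-0.95, SE 0.183, adjusted p = 0.000615). The calls of days 4.5, 5.5 and 7.5 held without any 1 library. Those of day 2 (-0.92), day 3.5 (-0.67) and day 6.5 (-0.72) did not. The day 2 value was -0.93 and -0.92 without WT library 1 or 2 and -0.73 and -0.91 without Foxa2-/- library 1 or 3, the day 3.5 value was -0.58 to -0.66 without Foxa2-/- library 1 or 3 or WT library 2 or 3, and the day 6.5 value was -0.44 without Foxa2-/- library 1.

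Thbs2 encodes thrombospondin-2, a matricellular protein. Day 7.5 values were 1.72 and 1.39 FPKM in Foxa2-/- cells, against 15.1, 7.63 and 8.97 FPKM in WT cells (-2.13, SE 0.354, adjusted p = 0.000134), and this call held without any 1 library. A smaller difference on day 2 (-0.73) was lost without any 1 of WT libraries 1 and 2 (-0.55 and -0.91) or Foxa2-/- libraries 1 and 3 (-0.62 and -0.72). Thbs1, thrombospondin-1, an activator of latent TGF-beta, moved the other way early. It was higher on day 1, at 24.2, 18.9 and 20.1 FPKM in Foxa2-/- cells, against 6.45 and 7.12 FPKM in WT cells (1.5, SE 0.324, adjusted p = 0.0421), a call lost without any 1 of the 5 libraries (1.4 to 1.57). On day 3.5 its mutant libraries were split, at 5.3, 71.1 and 64 FPKM in Foxa2-/- cells, against 18.5, 24.6 and 21.6 FPKM in WT cells. On day 7.5 it was lower, at 5.61 and 2.88 FPKM in Foxa2-/- cells, against 25.9, 25 and 24 FPKM in WT cells (-2.36, SE 0.628, adjusted p = 0.0083; -1.97 and not called without Foxa2-/- library 2). Thbs3 lay between 32.3 and 82.2 FPKM in all 28 later libraries and was not called, and Thbs4 did not pass the filter there.

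**Figure D3:**
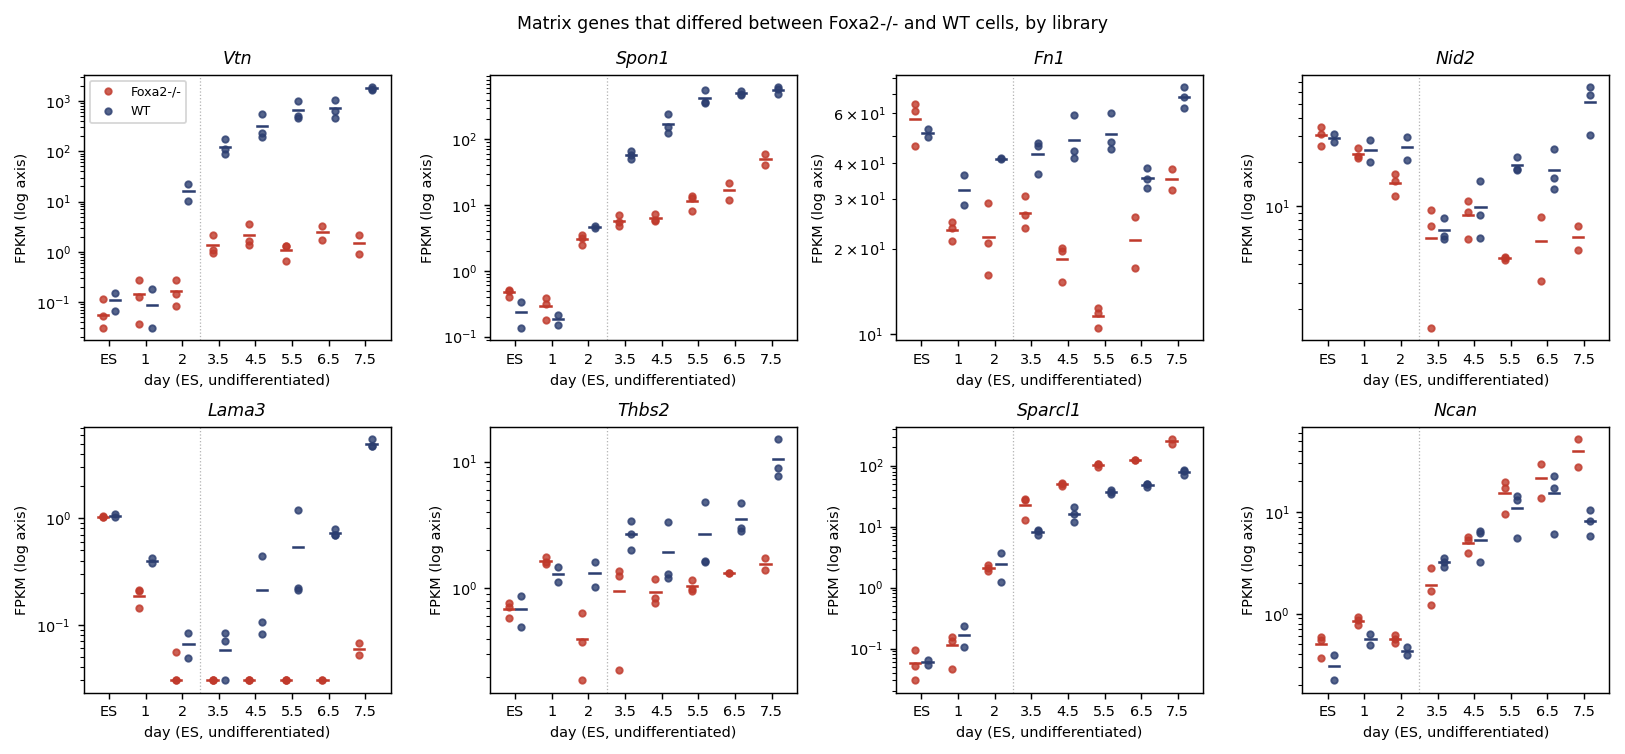
FPKM (log axis) of 8 members in every library of the Foxa2 experiment against time, with Foxa2-/- in red on the left and WT in blue on the right of each time; bars are means, values under 0.03 are drawn at 0.03, and the dotted line separates the 2 tables, which were made separately. Vtn stays at 3.57 FPKM or less in Foxa2-/- libraries while WT libraries reach 1700 to 1950, and Sparcl1 and Ncan end higher in Foxa2-/- cells.

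Among the laminin chains, Lama3, Lama5 and Lamb2 were lower in Foxa2-/- cells on day 7.5. Lama3 encodes the alpha chain of the epithelial laminin-332. It was near 1 FPKM in undifferentiated cells of both genotypes and under 0.1 FPKM on day 2. On day 7.5 it stood at 0.0675 and 0.0518 FPKM in Foxa2-/- cells, against 5.54, 4.74 and 4.72 FPKM in WT cells (-2.5, SE 0.186, adjusted p = 4.1e-09). Lama3 had passed the filter in the later libraries through WT cells alone, which limits its p-values there. The calls of days 6.5 and 7.5 held without any 1 library; that of day 5.5 (-0.54) was lost without WT library 1 (-0.26) and also without any 1 Foxa2-/- library (-0.54 to -0.55). Lamb3, its partner in laminin-332, was at 0.734 FPKM or less in all later libraries and did not pass the filter.

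Lama5, the alpha chain of laminin-511, stood at 6.96 and 9.88 FPKM in Foxa2-/- cells on day 7.5, against 35.1, 28 and 34.7 FPKM in WT cells (-1.85, SE 0.475, adjusted p = 0.00655). It was also lower on day 5.5 (-1.58, adjusted p = 0.0137). The first call was lost without Foxa2-/- library 1 (-1.62) and the second without WT library 1 (-1.46). Lamb2, the beta chain of the laminins of synapses and kidney, stood at 9.04 and 28 FPKM in Foxa2-/- cells on day 7.5, against 56.2, 71.6 and 70.1 FPKM in WT cells (-1.96, SE 0.579, adjusted p = 0.0159; -1.2 and not called without Foxa2-/- library 1). Lama4, a chain of vessel laminins, was at 2.3 FPKM or less throughout and was not called between genotypes.

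Of the linkers, Nid2 was lower in Foxa2-/- cells than in WT cells, and its relative Nid1 was not called. Nid2 encodes nidogen-2. On day 3.5 it stood at 1.47, 9.44 and 7.29 FPKM in Foxa2-/- cells, against 5.94, 6.24 and 8.33 FPKM in WT cells, and the groups overlapped. On day 5.5 it stood at 4.47, 4.32 and 4.41 FPKM in Foxa2-/- cells, against 21.6, 18 and 17.7 FPKM in WT cells (-1.89, SE 0.43, adjusted p = 0.00392). On day 7.5 the values were 5 and 7.36 FPKM in Foxa2-/- cells, against 30.6, 57.2 and 65.4 FPKM in WT cells (-2.81, SE 0.481, adjusted p = 0.000183), with no overlap. Both calls held without any 1 library. The call of day 6.5 (-1.54) was lost without WT library 1 (-1.29) or Foxa2-/- library 1 (-0.94). Dag1, which encodes dystroglycan, was lower on day 7.5 at 43.2 and 66.3 FPKM in Foxa2-/- cells, against 85.2, 91.8 and 102 FPKM in WT cells (-0.78, SE 0.217, adjusted p = 0.0108; -0.48 and not called without Foxa2-/- library 1). It was called on day 5.5 as well (-0.71), a call lost without WT library 1 (-0.68) or Foxa2-/- library 1 (-0.66) or 2 (-0.67).

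Collagens that were lower in the mutant came from several classes. Col2a1, the cartilage and notochord collagen, was lower on 4 days and most firmly on day 5.5, at 3.71, 1.83 and 1.74 FPKM in Foxa2-/- cells, against 19.4, 11.4 and 12.4 FPKM in WT cells (-2.18, SE 0.399, adjusted p = 0.000524). The calls of days 4.5 (-1.52), 6.5 (-1.48) and 7.5 (-1.69) each depended on single libraries. They were lost on day 4.5 without WT library 1 (-1.35) or Foxa2-/- library 2 (-1.51) or 3 (-1.26), on day 6.5 without WT library 2 (-1.45) or 3 (-1.32) or Foxa2-/- library 2 (-1.18), and on day 7.5 without Foxa2-/- library 2 (-0.9). Col9a1, a chain of the fibril-associated collagen IX, was at 0.0497 FPKM or less in every Foxa2-/- library from day 3.5 on, and at 1.73, 3.3 and 2.83 FPKM in WT cells on day 7.5 (-1.79, SE 0.218, adjusted p = 3.33e-06). Its call on day 5.5 (-0.77) was lost without WT library 1 (-0.58). Col9a1 had passed the filter in the later libraries through WT cells alone, which limits its p-values there.

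Col5a1, which nucleates collagen I fibrils, stood at 5.31 and 11.5 FPKM in Foxa2-/- cells on day 7.5, against 43.5, 39.2 and 37.5 FPKM in WT cells (-2.21, SE 0.554, adjusted p = 0.00552; -1.71 and not called without Foxa2-/- library 1). WT library 1 stood apart for this gene on days 4.5 and 5.5, at 48.4 and 58.4 FPKM against 13.1 to 15.1 FPKM in the other WT libraries. Without it the differences of those days were -1.12 and -0.97 and were not called, against -1.69 and -1.63 with it; the call of day 4.5 was also lost without Foxa2-/- library 2 (-1.75) or 3 (-1.4), and that of day 5.5 without any 1 Foxa2-/- library (-1.57 to -1.67). Col4a5 and Col4a6, the X-linked collagen IV chains, were lower by 0.67 and 0.62 log2 units on day 7.5 (adjusted p = 0.0349 and 0.00954). Col4a5 was lost without WT library 1 or 2 or Foxa2-/- library 1 (-0.53 to -0.65) and Col4a6 without Foxa2-/- library 2 (-0.47). On day 6.5 they were lower by 0.91 and 0.59 log2 units, and both calls were lost without Foxa2-/- library 1 (-0.66 and -0.58), that of Col4a6 also without WT library 3 (-0.45) or Foxa2-/- library 2 (-0.59).

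The fibrillar Col1a1, Col1a2 and Col3a1, typical of fibroblasts, were not called from day 3.5 on. Col3a1 in WT cells ran unevenly, at 2.04, 21.4 and 30.4 FPKM on day 6.5. Mesenchyme markers (8 genes) summed to 11.6 to 13.1 FPKM in Foxa2-/- cells on day 7.5, against 28.5 to 33.5 FPKM in WT cells. The means of Meox1, Prrx1, Lum and Tcf21 were below 1 FPKM in both. That of Twist1 was below 1 FPKM in Foxa2-/- cells alone. Tbx15 went the other way, with a mean below 1 FPKM in WT cells alone. Smooth muscle markers (6 genes, all but Cnn1 and Myh11 detected) summed to 19 to 19.6 FPKM in Foxa2-/- cells, against 179 to 360 FPKM in WT cells. Their part in the lower collagen values was not tested.

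A smaller set was higher in Foxa2-/- cells. Sparcl1, or hevin, is a secreted glycoprotein of astrocytes and radial glia that promotes synapse formation. On day 3.5 it stood at 12.7, 28.7 and 27.3 FPKM in Foxa2-/- cells, against 8.57, 7.27 and 8.88 FPKM in WT cells (1.29, SE 0.209, adjusted p = 0.0005). Day 7.5 brought 223 and 274 FPKM in Foxa2-/- cells, against 70.9, 80.9 and 85.2 FPKM in WT cells (1.64, SE 0.233, adjusted p = 2.28e-05). It was the member called higher on all 5 later days, by 1.29 to 1.64 log2 units, with no overlap and with every call kept without any 1 library. The call of day 3.5 was lost when only the groups compared were fitted. Before day 2 it stood at 0.157 FPKM or less in Foxa2-/- cells and at 0.232 FPKM or less in WT cells.

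Ncan, the chondroitin sulphate proteoglycan neurocan, parted from WT late. It stood at 13.7 and 29.5 FPKM in Foxa2-/- cells on day 6.5, against 6.12, 17.2 and 22.7 FPKM in WT cells, with overlap. On day 7.5 it stood at 27.9 and 52.1 FPKM in Foxa2-/- cells, against 5.8, 10.5 and 8.07 FPKM in WT cells (2.13, SE 0.464, adjusted p = 0.00181). This call held without any 1 library. Neural markers were also higher in the mutant on day 7.5: those of neural progenitors (7 genes) summed to 1280 to 1310 FPKM in Foxa2-/- cells, against 760 to 1030 FPKM in WT cells with Olig2 below 1 FPKM, and those of neurons (5 genes listed, all detected) to 276 to 438 FPKM in Foxa2-/- cells, against 177 to 237 FPKM in WT cells. On day 3.5, when Sparcl1 was already higher, progenitor markers summed to 492 to 565 FPKM in Foxa2-/- cells and 422 to 567 FPKM in WT cells, and neuron markers to 71.3 to 87.3 FPKM in Foxa2-/- cells, below every WT library. Their part in the Sparcl1 and Ncan values was not tested.

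Col18a1, the basement membrane collagen that yields endostatin, was higher on day 7.5 at 84.4 and 77.8 FPKM in Foxa2-/- cells, against 57.4, 22.2 and 24.7 FPKM in WT cells (1.33, SE 0.337, adjusted p = 0.00584; 1.27 and not called without Foxa2-/- library 1).

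Agrn, or agrin, was higher on day 7.5 at 89.5 and 142 FPKM in Foxa2-/- cells, against 52.3, 62.8 and 66.2 FPKM in WT cells (0.9, SE 0.272, adjusted p = 0.0189). It was not called without WT library 1 (0.8) or Foxa2-/- library 2 (0.57). Col11a1, a minor fibrillar collagen, was higher on day 5.5 at 6.65, 7.1 and 6.98 FPKM in Foxa2-/- cells, against 4.63, 3.8 and 3.44 FPKM in WT cells (0.68, SE 0.151, adjusted p = 0.00321). Its smaller difference on day 4.5 (0.52) was lost without any 1 of the 6 libraries (0.46 to 0.57). Vcan, the proteoglycan versican, was lower on day 7.5 at 59.4 ± 32 FPKM in Foxa2-/- cells (SD, n = 2) and 154 ± 32.1 FPKM in WT cells (SD, n = 3) (-1.45, SE 0.426, adjusted p = 0.0154), and was not called without WT library 3 (-1.29) or Foxa2-/- library 2 (-0.88). Tnc, or tenascin-C, was lower on day 6.5 (-1.1, adjusted p = 0.0251), a call lost without WT library 2 (-0.94) or 3 (-0.93) or Foxa2-/- library 1 (-0.69).

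The core of the basement membrane, laminin-111 (Lama1, Lamb1, Lamc1), the main collagen IV chains (Col4a1, Col4a2), Nid1 and Sparc, was not called between genotypes at any time from day 2 on. These genes were abundant, and their replicates spread widely. Col4a1 stood at 3.61, 47 and 22.3 FPKM in Foxa2-/- cells on day 3.5, against 28.3, 44.4 and 59.9 FPKM in WT cells (-1.32, SE 0.845, adjusted p = 0.532). On day 6.5 it stood at 52.3 and 469 FPKM in Foxa2-/- cells, against 91.6, 30.7 and 45.4 FPKM in WT cells (1.62, SE 0.945, adjusted p = 0.226). On day 7.5 it stood at 97.6 and 539 FPKM in Foxa2-/- cells, against 171, 773 and 753 FPKM in WT cells (-1.01, SE 0.945, adjusted p = 0.485). The libraries of each genotype overlapped on all 3 days.

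The other core genes followed the same libraries. Lama1, the alpha chain of laminin-111, stood at 38.3 and 155 FPKM in Foxa2-/- cells on day 7.5, against 38.2, 246 and 258 FPKM in WT cells. Lamb1 stood at 74 and 181 FPKM in Foxa2-/- cells, against 61.5, 290 and 293 FPKM in WT cells. Lamc1 stood at 112 and 225 FPKM in Foxa2-/- cells, against 171, 487 and 481 FPKM in WT cells. In each of them library 1 of either genotype was the low one.

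Col4a2 averaged 211 ± 222 FPKM in Foxa2-/- cells on day 7.5 (SD, n = 2) and 407 ± 245 FPKM in WT cells (SD, n = 3). Nid1, the laminin to collagen IV linker nidogen-1, averaged 68 ± 44.6 FPKM in Foxa2-/- cells and 106 ± 64.4 FPKM in WT cells. Sparc, a collagen-binding glycoprotein of parietal endoderm and many other cells, stood at 438 and 1250 FPKM in Foxa2-/- cells, against 572, 1380 and 1410 FPKM in WT cells. The differences of the 7 core genes on day 7.5 lay between -0.49 and -1.23 log2 units with SE of 0.595 to 0.967, so a real difference of such a size could not be detected here. Hspg2, or perlecan, was not called either, at 3.74 and 15.8 FPKM in Foxa2-/- cells, against 10.5, 13.3 and 13.7 FPKM in WT cells (-0.59, SE 0.616, adjusted p = 0.539).

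Single libraries decided some of these results on day 6.5. Lama1 was higher in Foxa2-/- cells without WT library 1 (2.57, adjusted p = 0.0255) or without Foxa2-/- library 1 (2.92, adjusted p = 0.035), and Col4a1 and Col4a2 were higher without Foxa2-/- library 1 (3.19 and 3.17), where the lone mutant library is assumed to vary like the others. On day 2, Nid1 was lower (-1.15) and Sparc higher (0.47) without Foxa2-/- library 2. With all libraries the differences were 1.8 for Lama1, 1.62 for Col4a1 and 1.58 for Col4a2 on day 6.5, and -0.8 for Nid1 and 0.34 for Sparc on day 2, with adjusted p of 0.118 to 0.226.

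Some transcripts of endoderm moved with these libraries, and others did not. Gata4, an endoderm transcription factor, stood at 10.8 and 32.4 FPKM in Foxa2-/- cells on day 7.5, against 5.95, 35 and 34.6 FPKM in WT cells. On day 6.5 it stood at 6 and 27.1 FPKM in Foxa2-/- cells, against 7.62, 1.47 and 1.53 FPKM in WT cells, and on day 3.5 at 0.137, 3.97 and 1.98 FPKM in Foxa2-/- cells, against 0.174, 0.784 and 0.231 FPKM in WT cells. Pdgfra, also made by primitive endoderm, stood at 9.05 and 24.3 FPKM in Foxa2-/- cells on day 7.5, against 3.18, 13.6 and 13.4 FPKM in WT cells. Afp did not follow, at 3.29 and 3.91 FPKM in Foxa2-/- cells on day 7.5, against 1.2, 0.856 and 0.825 FPKM in WT cells. Dab2 was even in WT cells on day 6.5, at 15.8, 15.1 and 15.5 FPKM, where Lama1 stood at 60.8, 11.1 and 12 FPKM. Over the whole list of 11 endoderm markers the sum was 67.6 FPKM or more in Foxa2-/- cells on day 7.5, with 11 at 1 FPKM or more in mean, against 32.6 to 123 FPKM in WT cells, with 9 of 11 and Amn and Afp below. On day 3.5 it ran from 5.98 to 60.3 FPKM in Foxa2-/- cells (4 of 11) and from 20.6 to 22.8 FPKM in WT cells (2 of 11), with Gata6, Sox17, Sox7, Amn, Afp, Ttr and Thbd below 1 FPKM in both. The part of such cells in the spread of the core genes was not tested. For Vtn and Spon1 the day 7.5 WT libraries ran from 1700 to 1950 FPKM and from 479 to 629 FPKM, closer together than those of the core genes. This order did not hold on every day. On day 5.5 the highest WT library over the lowest was 2.13 for Vtn and 1.6 for Spon1. For the core genes it ran from 1.12 (Nid1) to 1.82 (Col4a2) on that day.

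**Figure D4:**
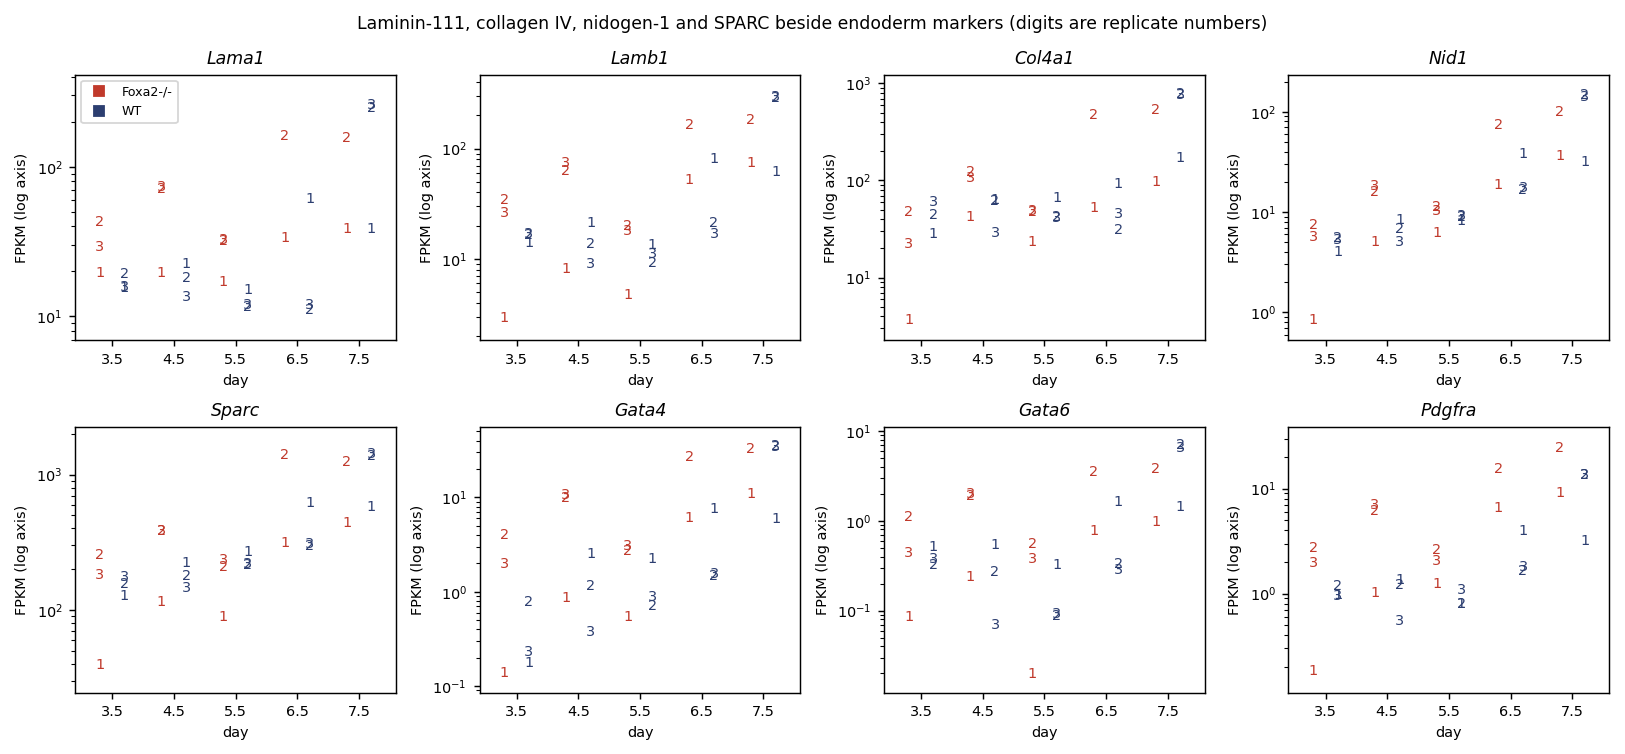
FPKM (log axis) against day for 5 core genes and the endoderm markers Gata4, Gata6 and Pdgfra in each later library of the Foxa2 experiment; digits are replicate numbers, Foxa2-/- in red on the left and WT in blue on the right. On day 7.5 library 1 of either genotype is lowest for each gene shown, as for Col4a1 at 97.6 FPKM in Foxa2-/- and 171 FPKM in WT cells.

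Across the 28 later libraries Col4a1 spanned a 214-fold range, while its ratio to Col4a2 ran from 1.02 to 1.98 with a median of 1.41. The 2 genes lie head to head on chromosome 8, Col4a1 at 11198423 to 11312826 on the minus strand and Col4a2 at 11312805 to 11449287 on the plus strand (GRCm38), so that their annotated starts are 21 bases apart. Col4a5 and Col4a6 lie head to head on the X chromosome with starts 1309 bases apart, and their ratio ran from 7.51 to 26.5 with a median of 13.5 over the same libraries. Col4a6 was low there, at 0.146 to 2.8 FPKM, so this ratio is less exact than that of Col4a1 to Col4a2. The ratio of Lama1 to Lama5, the 2 main alpha chains here, ran from 0.869 to 37.8.

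The first days of differentiation changed many members in both lines. Between undifferentiated cells and day 2, 19 members rose and 4 fell in Foxa2-/- cells, where 54.6% of all genes were called (31.4% higher, 23.2% lower). Without Foxa2-/- libraries 1 and 3 of day 2 the mutant count was 18 in all, and the count of day 2 between genotypes 1 in place of 3. In WT cells 20 rose and 1 fell, where 33.9% were called (19.1% higher, 14.8% lower). In WT cells the largest rises after Vtn (3.87) were those of Vcan (3), Col4a2 (2.67) and Col4a1 (2.46). Col4a1 stood at 121 and 120 FPKM on day 2, against 31.6 and 13.9 FPKM in undifferentiated WT cells. In Foxa2-/- cells the largest rises were those of Vcan (2.57), Col2a1 (1.9), Lamb2 (1.89) and Thbs3 (1.8); for Thbs3 the rise was 1.02 and not called without Foxa2-/- libraries 1 and 3 of day 2. Vcan stood at 26.9, 42.3 and 58.3 FPKM on day 2, against 5.91, 5.02 and 7.31 FPKM in undifferentiated Foxa2-/- cells.

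Members that fell by day 2 in Foxa2-/- cells were Fn1 (-1.36), Nid2 (-1.04), Lama3 (-0.99) and Tnc (-0.34), and the one that fell in WT cells was Lama3 (-0.94). The Tnc call was lost without any 1 of the undifferentiated libraries or of libraries 1 and 3 of day 2 (-0.26 to -0.37). The difference between genotypes in this change was called for Vtn alone (-3.73, SE 0.33, adjusted p = 0.000299), where 1.01% of all genes were called (0.261% higher, 0.747% lower). It held without any 1 library, but Vtn had passed the filter up to day 2 through WT cells alone.

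On day 1 several members were higher in the mutant. Col1a2 stood at 6.98, 7.39 and 8.72 FPKM in Foxa2-/- cells, against 1.97 and 2.65 FPKM in WT cells (1.4, SE 0.157, adjusted p = 0.00127). Tnc stood at 2.22, 2.04 and 2.16 FPKM in Foxa2-/- cells, against 0.314 and 0.291 FPKM in WT cells (1.27, SE 0.14, adjusted p = 0.00112). Sparc stood at 332, 346 and 333 FPKM in Foxa2-/- cells, against 153 and 169 FPKM in WT cells (1.07, SE 0.154, adjusted p = 0.00472). These groups did not overlap. Only Col1a2 and Tnc kept their calls without each library in turn.

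Sparc was not called without WT library 1 (1), nor Col2a1 (1.02) without WT library 1 (0.74) or Foxa2-/- library 3 (0.98). That WT library had the strong length dependence given above; with the length trend removed from all libraries both genes were still called (1.07 and 1.09). Col4a1 stood at 58.7, 63.9 and 71.5 FPKM in Foxa2-/- cells, against 14.2 and 27.4 FPKM in WT cells (1.66, SE 0.371, adjusted p = 0.048), and its call was lost without WT library 1 (1.21) or any 1 Foxa2-/- library (1.59 to 1.73). The median over tested members was 0.58 on this day, beside 0.09 over all genes. On day 2 none of these 6 genes was called between genotypes.

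By day 7.5, set against day 3.5, most tested members had risen in WT cells: 30 of 40 tested members were higher on day 7.5 and 1 was lower, where 46.8% of all genes were called (24.5% higher, 22.4% lower). The largest rises were those of Vtn (3.89, SE 0.392, adjusted p = 1.73e-07), Nid1 (3.89, SE 0.625, adjusted p = 3.49e-05), Col4a2 (3.54) and Col4a1 (3.43). The one fall was that of Col18a1, which averaged 34.8 ± 19.6 FPKM on day 7.5, against a range of 99.7 to 154 FPKM on day 3.5 (-1.95, SE 0.301, adjusted p = 2.39e-05). The call held without any 1 library.

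In Foxa2-/- cells 16 members rose and 1 fell over the same days, where 32.1% of all genes were called (18.7% higher, 13.4% lower). The largest rises were those of Ncan (3.79, SE 0.464, adjusted p = 6.14e-06), Col4a1 (3.74), Nid1 (3.7, SE 0.698, adjusted p = 0.000595) and Sparcl1 (3.46, SE 0.233, adjusted p = 2.51e-09). The rises of Col4a1 and Col4a2 (3.37) were not called without Foxa2-/- library 2 of day 7.5 (2.51 and 2.01), nor was that of Sparc (2.59) without that library (1.83) or Foxa2-/- library 1 of day 3.5 (1.78). Thbs1 fell (-2.61, adjusted p = 0.00387; -2.22 and not called without Foxa2-/- library 2 of day 7.5). Lama4 rose in the mutant, to 1.51 and 2.3 FPKM on day 7.5, against 0.0602, 0.193 and 0.384 FPKM on day 3.5 (1.26, SE 0.247, adjusted p = 0.000848).

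The change from day 3.5 to day 7.5 itself differed between genotypes for 9 members, 3 higher and 6 lower in Foxa2-/- cells, where 7.42% of all genes were called (3.71% in each direction). Vtn (-3.83, SE 0.588, adjusted p = 0.000293), Lama3 (-2.43, SE 0.249, adjusted p = 4.05e-06) and Col9a1 (-1.55, SE 0.293, adjusted p = 0.00197) kept this call without each library in turn. Lama3 and Col9a1 had passed the filter in these libraries through WT cells alone, which limits their calls. Ncan (2.71) lost it without Foxa2-/- library 2 of day 7.5 alone (2.27). The other calls each depended on several libraries. That of Thbs1 (-2.82) was lost without any 1 WT library of either day, Foxa2-/- library 2 or 3 of day 3.5 or either Foxa2-/- library of day 7.5 (-2.21 to -3.2). That of Nid2 (-2.43) was lost without WT library 1 or 2 of day 3.5, WT library 2 or 3 of day 7.5, Foxa2-/- library 2 or 3 of day 3.5 or Foxa2-/- library 1 of day 7.5 (-2.03 to -2.38). That of Col4a6 (-0.77) was lost without WT library 1 or 2 of day 3.5, WT library 1 of day 7.5, Foxa2-/- library 1 or 2 of day 3.5 or Foxa2-/- library 2 of day 7.5 (-0.62 to -0.79). Agrn (1.23) kept its call only without Foxa2-/- library 1 of day 7.5, and ranged from 0.9 to 1.3 without the others. Col18a1 (1.72) lost it without WT library 3 of day 3.5, WT library 2 or 3 of day 7.5, Foxa2-/- library 1 of day 3.5 or Foxa2-/- library 1 of day 7.5 (1.47 to 1.66). Spon1, which rose by 2.89 in Foxa2-/- cells and 3.26 in WT cells, was not called.

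Genes that receive or build the matrix were counted from 4 further lists. These were also chosen with earlier results of these data known, so their counts and medians are no test of the lists. The counts are to be read beside the 13.6% of all genes higher and 12.1% lower in Foxa2-/- cells on day 7.5. On that day, 1 of 22 tested integrins and other matrix receptors was higher in Foxa2-/- cells and 9 were lower. The higher one was Itga2, a collagen receptor subunit, at 1.06 ± 0.00706 FPKM in Foxa2-/- cells and 0.337 ± 0.167 FPKM in WT cells (0.63). Itga3, a laminin receptor subunit, averaged 3.21 ± 2.16 FPKM (SD, n = 2) in Foxa2-/- cells and 22.2 ± 5.5 FPKM (SD, n = 3) in WT cells (-2.54, adjusted p = 0.00343). Itgb3, which pairs with alpha-v as a vitronectin receptor, averaged 0.912 ± 0.09 FPKM in Foxa2-/- cells and 6.31 ± 1.52 FPKM in WT cells (-1.92).

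Of 30 tested matrix assembly enzymes 15 were lower and 0 higher on day 7.5, beside 12.1% and 13.6% of all genes. Bmp1, the procollagen C-proteinase, averaged 19.1 ± 11.7 FPKM in Foxa2-/- cells and 179 ± 43.4 FPKM in WT cells (-3.26, adjusted p = 5.38e-06). Pcolce, its enhancer protein, averaged 6.4 ± 3.19 FPKM in Foxa2-/- cells and 49.1 ± 15.4 FPKM in WT cells (-2.78). P4ha3, a prolyl hydroxylase subunit, averaged 14.8 ± 4.04 FPKM in Foxa2-/- cells and 74.6 ± 11.9 FPKM in WT cells (-2.27).

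Of 25 tested matrix proteases and inhibitors 11 were lower and 3 higher, beside the same shares. The higher ones were Adamts20 (0.93), Mmp17 (0.88) and Timp4 (0.68), and the lower ones included Adamts9, a proteoglycan-cleaving protease (-2.32, adjusted p = 0.00184), and Serpine2, an inhibitor of thrombin and plasminogen activators, at 43.5 ± 0.558 FPKM in Foxa2-/- cells and 151 ± 28.6 FPKM in WT cells (-1.75). Of 45 tested other matrix genes 14 were lower and 4 higher, again beside 12.1% and 13.6% of all genes. The higher ones were Emilin2 (1.44), Mfap4 (1.3), Frem1 (0.86) and Col23a1 (0.67). Col8a2, a short-chain collagen, averaged 0.166 ± 0.0352 FPKM in Foxa2-/- cells and 28.8 ± 6.5 FPKM in WT cells (-4.65, adjusted p = 1.54e-08). Whether genes of these 4 lists passed the filter through 1 genotype alone was not checked, and this would limit their p-values. The medians of the 4 lists were -0.52, -0.71, -0.37 and -0.36 log2 units, beside 0.04 over all genes. On day 3.5 the same lists held 0 higher and 1 lower, 0 higher and 5 lower, 0 higher and 1 lower, and 1 higher and 6 lower, in the order above, beside 0.677% of all genes higher and 2.7% lower.

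The Nkx2.2 experiment had 1 library per group. No test was made, and a difference of 1 log2 unit or more is only counted. On day 3.5, 0 of 39 members were higher by this rule in Nkx2.2-/- cells and 1 was lower, where 4.63% of 15141 genes passed it (1.82% higher, 2.81% lower). The member was Col1a2, at 6.97 FPKM in Nkx2.2-/- cells and 18.4 FPKM in WT cells (-1.29). On day 5.5, 1 was higher and 2 were lower, where 4.48% of genes passed (1.61% higher, 2.87% lower). Nid2 stood at 53.9 FPKM in Nkx2.2-/- cells and 24.1 FPKM in WT cells (1.13). Col1a1 stood at 1.36 FPKM in Nkx2.2-/- cells and 3.91 FPKM in WT cells (-1.05), and Col1a2 at 0.721 FPKM in Nkx2.2-/- cells and 2.61 FPKM in WT cells (-1.07). The direction of Nid2 was the same on day 3.5, at 44.1 FPKM in Nkx2.2-/- cells and 24.4 FPKM in WT cells (0.83). Col1a1 went the other way on day 3.5, at 16.5 FPKM in Nkx2.2-/- cells and 10.9 FPKM in WT cells.

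Vtn and Spon1 were abundant in Nkx2.2-/- cells. Vtn differed by -0.91 log2 units on day 3.5, at 72.9 FPKM in Nkx2.2-/- cells, and stood at 264 FPKM in Nkx2.2-/- cells and 498 FPKM in WT cells on day 5.5 (-0.91). Spon1 stood at 209 FPKM in Nkx2.2-/- cells and 322 FPKM in WT cells on day 5.5 (-0.62). Floor plate markers summed to 1430 FPKM in Nkx2.2-/- cells and 1620 FPKM in WT cells on that day. Among members at 5 FPKM or more in either library, the other large differences on day 3.5 were lower for Tnc (-0.92) and Lama5 (-0.83) and higher for Thbs2 (0.9) and Nid1 (0.83). By the same limit on day 5.5 they were lower for Ncan (-0.72) and Vcan (-0.42) and higher for Col5a2 (0.78), Col4a2 (0.46) and Sparcl1 (0.38). Members below that limit also differed by similar amounts, among them Lama4 on day 3.5 (-0.86) and Col6a2 (-0.76) and Tnc (-0.68) on day 5.5.

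Day 5.5 of this experiment followed the withdrawal of both SAG and retinoic acid, which cannot be told apart from each other or from time. Set against day 3.5, in Nkx2.2-/- cells 3 members were higher on day 5.5 and 6 lower, where 5.16% of genes passed the rule (3.1% higher, 2.06% lower). In WT cells 3 were higher and 5 lower, where 6.99% passed (4.33% higher, 2.66% lower). Vtn was higher by 1.84 log2 units in both, and Spon1 by 2.25 in Nkx2.2-/- cells and 2.52 in WT cells. Col1a1 was lower by 2.89 log2 units in Nkx2.2-/- cells and by 1.28 in WT cells, Col1a2 by 2.21 in Nkx2.2-/- cells and 2.43 in WT cells, and Tnc by 1.9 in Nkx2.2-/- cells and 2.14 in WT cells. Smooth muscle markers were lower on day 5.5 too, at 299 FPKM in Nkx2.2-/- cells and 429 FPKM in WT cells, against 1380 FPKM in Nkx2.2-/- cells and 1430 FPKM in WT cells on day 3.5. Their part in the lower collagen I values was not tested.

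**Figure D5:**
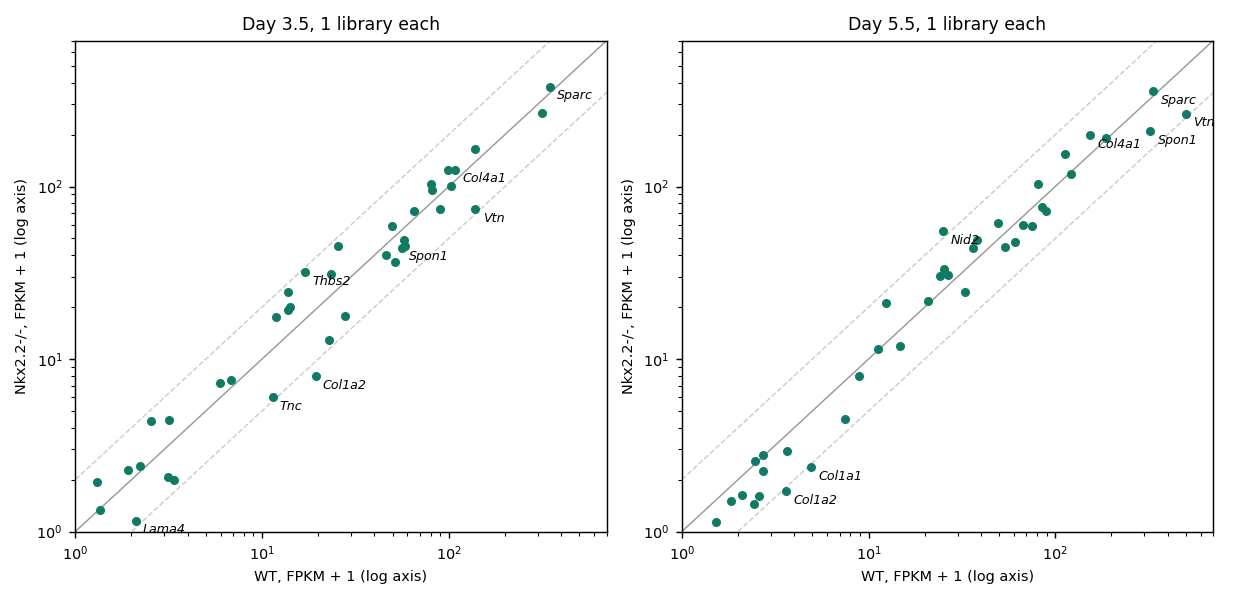
FPKM + 1 in Nkx2.2-/- cells (y, log axis) against WT cells (x, log axis) for the 39 members kept, 1 library each, on day 3.5 (left) and day 5.5 (right); the solid line marks equality and the dashed lines a difference of 1 log2 unit. Vtn lies just inside the lower dashed line on both days, and Nid2 is the one member past the upper line on day 5.5.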

How the data were processed

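Poly-A selected stranded RNA was sequenced, and the authors deposited FPKM values in 3 tables, used as they stand. Per the submitters' processing notes, the tools were Cufflinks 2.1.1, HTSeq 0.6.1, TopHat2 2.0.4, limma, CASAVA and bcl2fastq 1.8.3, with GRCm38 (mm10); which made the FPKM, and from which annotation, is not given in the sources used here. Another 3 columns belong to no sample and were not used. Each table was analysed apart in R 4.3.3 with limma 3.58.1 (empirical Bayes with trend, two-sided) on log2(FPKM + 1) with one mean per group, after dropping genes that reached 1 FPKM in fewer than 2 libraries; p-values were adjusted over all genes by the Benjamini-Hochberg method. The added 1 understates changes of low genes. An exact 0 may be a failed estimate. The spacing of low values gave an estimate of depth, so no counting intervals are given. On simulated data for day 3.5 (17124 genes), 66% of changes of 1 log2 unit and 93% of changes of 2 were recovered, with 5.36% of calls false; for day 2 (16465 genes) 47% and 89% were recovered, with 2.86% false. The simulation used normal noise and changed only genes with a mean log2(FPKM + 1) over 1, so these shares do not cover lower genes. Days 6.5 and 7.5, with 2 Foxa2-/- libraries each, were not simulated. Repeated gene identifiers were reduced to 1 row, and positions come from GENCODE (GRCm38). Python 3.11.15, pandas 2.3.3 and matplotlib 3.10.9 served for the figures.

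The members and gene lists were chosen with earlier results of these data known. Members are named where they are among the 6 largest rises or falls called between genotypes, or the 4 largest over time, or belong to a fixed set (laminin-111, Col4a1, Col4a2, Vtn, Fn1, Spon1, Sparc, Nid1, Hspg2); others named were chosen after their values were seen. Other settings tried were median-of-ratios factors, a pseudocount of 0.1, omission of the filter, removal of the length trend, only the groups compared, the replicate number as a block, and leaving out each library.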

Additional observations from a re-analysis of the deposited data

Results flagged for a closer look

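A change over time that differed between genotypes, by the interaction test, was found for 10 results. From undifferentiated cells to day 2 the change of Vtn was lower in Foxa2-/- cells by 3.73 log2 units (value -3.73). From day 3.5 to day 7.5 the difference of changes was -3.83 for Vtn, -2.82 for Thbs1, -2.43 for Lama3, -2.43 for Nid2, -1.55 for Col9a1 and -0.77 for Col4a6, and 2.71 for Ncan, 1.72 for Col18a1 and 1.23 for Agrn. Without each library in turn the calls of Vtn, Lama3 and Col9a1 held and the other 6 of the later change did not. Lama3 and Col9a1 had passed the filter in the later libraries, and Vtn in those up to day 2, through WT cells alone. No group had the 4 libraries that a test for a single outlying library needs.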

How the results depend on the processing

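No call of a member reversed under any alternative run. Of 165 calls, 160 held with a pseudocount of 0.1, 156 without a filter, 162 with median-of-ratios factors, 155 with the length trend removed, 158 with the replicate number as a block, 165 with isolated zeros as missing (an alternative chosen after seeing the data) and 114 when only the groups compared were fitted, which leaves fewer libraries to estimate the spread. The count of called members was 4 in place of 7 on day 4.5, 4 in place of 11 on day 6.5, 12 in place of 20 on day 7.5, 5 in place of 17 from day 3.5 to day 7.5 in Foxa2-/- cells and 5 in place of 9 for the later difference of changes when only the groups compared were fitted. On day 2, with 3 calls, it was 0 under that setting, 5 without a filter, 6 where isolated zeros counted as missing, 1 with the replicate block and 1 without Foxa2-/- libraries 1 and 3. On day 1 it was 3 with the replicate block in place of 6. In the Nkx2.2 experiment a pseudocount of 0.1 put 6 members past 1 log2 unit on day 3.5 in place of 1, and 6 on day 5.5 in place of 3. The cause was not tested.

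Leaving out each library in turn gave 2 to 7 calls on day 1, 1 to 11 on day 2, 3 to 4 on day 3.5, 4 to 6 on day 4.5, 9 to 13 on day 5.5, 8 to 14 on day 6.5 and 14 to 21 on day 7.5. It gave 17 to 22 in WT and 20 to 27 in Foxa2-/- cells to day 2, 29 to 33 in WT and 8 to 20 in Foxa2-/- cells from day 3.5 to day 7.5, and 1 to 7 and 5 to 6 for the 2 differences of changes. Same-numbered libraries deviated together (r over 0.1) in 6 of 19 pairs (-0.243 to 0.36), so replicate numbers were not taken to pair them. Median-of-ratios factors put the median over all genes at -0.02 in place of 0.09 on day 1, and, from undifferentiated cells to day 2, at 0.02 in place of 0.14 in Foxa2-/- cells and at 0 in place of 0.11 in WT cells.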
